A study of Homo sapiens with 17 samples.

Results

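A set of 9 genes of YAP/TEAD signalling was followed through every RNA library of a study of head and neck cancer cell lines. They were YAP1, TEAD1, LATS2, CCN1, CCN2, ANKRD1, AMOTL2, AXL and THBS1, that is 9 of the 34496 gene rows of the count table. The 9 were chosen by symbol with results of the same libraries already known, so their levels and fold changes are a description, given with standard errors and no p-value. Whether they passed the threshold applied to all genes is given once, as a count that describes how they were chosen.

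The study measured RNA in Cal27, a squamous cell carcinoma line of the tongue, and in a Cal27 line labelled as an NSD1 knockout. NSD1 is a histone methyltransferase that places dimethylation on lysine 36 of histone H3. There were 2 libraries each of the labelled knockout treated with EPZ-6438, the labelled knockout with DMSO, and Cal27 with DMSO. EPZ-6438 is an inhibitor of EZH2, the methyltransferase of lysine 27 of histone H3, and DMSO is its solvent. A further set of untreated cells held 1 library each of the labelled knockout, SKN3, BICR78 and Cal27, where SKN3 and BICR78 are other head and neck cancer lines. The knockout and parental groups share the Cal27 background. Only 1 line is labelled as a knockout, so what is particular to that line and what comes with the NSD1 label cannot be told apart, and Cal27 with EPZ-6438 was not analysed here.

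In the Hippo pathway, the kinases STK3 and STK4 with their scaffold SAV1 switch on LATS1 and LATS2, which phosphorylate YAP1 and its relative TAZ and keep them out of the nucleus. When it is not phosphorylated, YAP1 enters the nucleus, and since it does not bind DNA itself it reaches its target genes by binding TEAD factors such as TEAD1. In epithelia the pathway reads cell density, attachment and tension, and in squamous carcinomas high YAP and TAZ activity is a known feature. CCN1, CCN2 and ANKRD1 are the most used transcriptional readouts of YAP and TEAD, while LATS2 and AMOTL2 are targets that in turn restrain YAP1.

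Totals per library, in units of 1000000 counts, were between 11.75 and 15.51 in the 6 EPZ-6438 and DMSO libraries and between 17.59 and 21.74 in the 4 untreated ones. NSD1 messenger RNA did not fall in the line labelled as its knockout. It stood at 162 and 151 CPM (counts per 1000000 counts, scaled over the 10 libraries) with EPZ-6438, 165 and 164 CPM in the labelled knockout with DMSO, and 113 and 114 CPM in Cal27 with DMSO. A gene is said to be called where its Benjamini-Hochberg adjusted p in the edgeR fit was below 0.05. The knockout contrast compares the 2 lines in DMSO, the labelled knockout over Cal27, and the inhibitor contrast sets EPZ-6438 against DMSO within the labelled knockout. In the DMSO libraries NSD1 was higher in the labelled knockout by log2 0.53 ± 0.04 (SE; edgeR quasi-likelihood test, adjusted p = 4.2e-08). A count over the whole gene does not show whether the transcript is intact, so these values do not check the label. Among the untreated libraries, NSD1 had 203 CPM in the labelled knockout, 78.1 CPM in SKN3, 0.468 CPM (9 counts) in BICR78 and 149 CPM in Cal27. EZH2 was not called in the knockout contrast (log2 0.14 ± 0.06, adjusted p = 0.077) or in the inhibitor contrast (log2 -0.01 ± 0.06, adjusted p = 0.91; edgeR). All 9 squamous epithelial markers were detected in all 10 libraries, and the keratin KRT5 was the highest of them in every library but SKN3, where it was KRT17. The 8 fibroblast markers summed to between 7.52 and 55.6 CPM, with THY1 at 0 in 8 libraries and PDGFRA at 0 in 4. The 4 endothelial markers, led by CDH5 or VWF, summed to between 5.52 and 86.5 CPM and the 5 leukocyte markers, led by CD14, to between 6.17 and 33.1 CPM.

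TEAD factors bind a short sequence, GGAATG, which reads CATTCC on the other strand. The promoter windows of 7 of the 9 genes, from 250 bases before to 50 after an annotated start in RefSeq (GRCh38.p14), were searched for it on both strands. TEAD1 and CCN1 had no window and were not searched. At least 1 match lay in 7 of 9 windows (77.8%) and in 7 of 7 genes, beside 14.0% of all 35116 windows and 16.7% of 27305 genes. For AMOTL2 and AXL it lay only at the second of 2 starts. The genes were chosen as factors and targets of YAP and TEAD, so nothing is read from the higher share. CCN2 held 3 matches, a number that 0.128% of all windows reached or passed, and ANKRD1 held 2, reached or passed by 1.37%. The 250 bases before the start are printed for the genes with the most matches and for those whose RNA levels are followed most closely below, 5′ to 3′ on the gene's strand, with the matched bases in capitals.
CCN2, chr6:131951373-131951622 (minus strand): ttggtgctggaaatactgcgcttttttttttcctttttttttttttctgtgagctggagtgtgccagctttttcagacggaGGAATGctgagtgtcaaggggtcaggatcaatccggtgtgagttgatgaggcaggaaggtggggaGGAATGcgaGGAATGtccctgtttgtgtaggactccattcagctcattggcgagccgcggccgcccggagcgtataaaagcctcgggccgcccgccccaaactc
ANKRD1, chr10:90921088-90921337 (minus strand): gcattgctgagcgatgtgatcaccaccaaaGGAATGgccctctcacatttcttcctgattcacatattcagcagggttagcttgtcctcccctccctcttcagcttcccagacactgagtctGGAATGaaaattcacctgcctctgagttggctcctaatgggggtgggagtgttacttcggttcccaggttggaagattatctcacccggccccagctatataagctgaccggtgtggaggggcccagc
THBS1, chr15:39580829-39581078 (plus strand): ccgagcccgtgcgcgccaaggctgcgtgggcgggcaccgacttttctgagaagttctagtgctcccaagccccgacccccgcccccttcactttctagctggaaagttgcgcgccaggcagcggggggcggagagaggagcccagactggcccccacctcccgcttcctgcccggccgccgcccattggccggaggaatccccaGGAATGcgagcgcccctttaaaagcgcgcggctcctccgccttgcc
AMOTL2, second of 2 starts, chr3:134374448-134374697 (minus strand): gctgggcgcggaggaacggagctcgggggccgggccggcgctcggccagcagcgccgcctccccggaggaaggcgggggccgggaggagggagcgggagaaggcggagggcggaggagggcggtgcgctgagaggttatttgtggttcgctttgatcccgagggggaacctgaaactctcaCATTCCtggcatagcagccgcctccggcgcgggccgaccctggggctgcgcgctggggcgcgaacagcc
YAP1, chr11:102110197-102110446 (plus strand): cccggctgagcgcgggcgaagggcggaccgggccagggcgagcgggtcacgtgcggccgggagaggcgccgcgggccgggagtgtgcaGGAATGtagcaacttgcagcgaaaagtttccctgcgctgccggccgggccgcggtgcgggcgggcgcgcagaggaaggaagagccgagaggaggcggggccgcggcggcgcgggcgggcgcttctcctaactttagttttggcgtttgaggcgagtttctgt
For LATS2, where the match begins at position 10 after the start, and for the second of 2 AXL starts, where it lies on the other strand at -212, 26 bases around the match are given.
LATS2, chr13:21061562-21061587 (minus strand): tgacgcccgtGGAATGccaacaatgt
AXL, chr19:41226533-41226558 (plus strand): gactttgcacCATTCCactccctccg

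Positions are counted from the start, with bases before it negative. In CCN2 the 3 matches began at -169, -104 and -95, the last 2 with 3 bases between them. In ANKRD1 they began at -220 and -128, and in THBS1 the only one began at -46. The pattern TGANTCA, searched on both strands, takes any base in the middle, and is looser than the AP-1 site, which has C or G there. It matched in the ANKRD1 window, at -195, where the bases read TGATTCA, and in no other window of the 7 genes. This loose pattern is in 7.71% of all windows, and the stricter AP-1 site was not counted. The CArG box bound by SRF was found in none of the 9 windows, which leave out TEAD1 and CCN1, and in 1.29% of all. Of 16 published YAP/TAZ targets outside the 9, 11 had a window, and the TEAD sequence was in 4 of these 11 windows (36.4%). A match of 6 letters is a description and shows no binding, and the windows leave out distal enhancers, where much TEAD binding is known to lie.

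**Figure D1:**
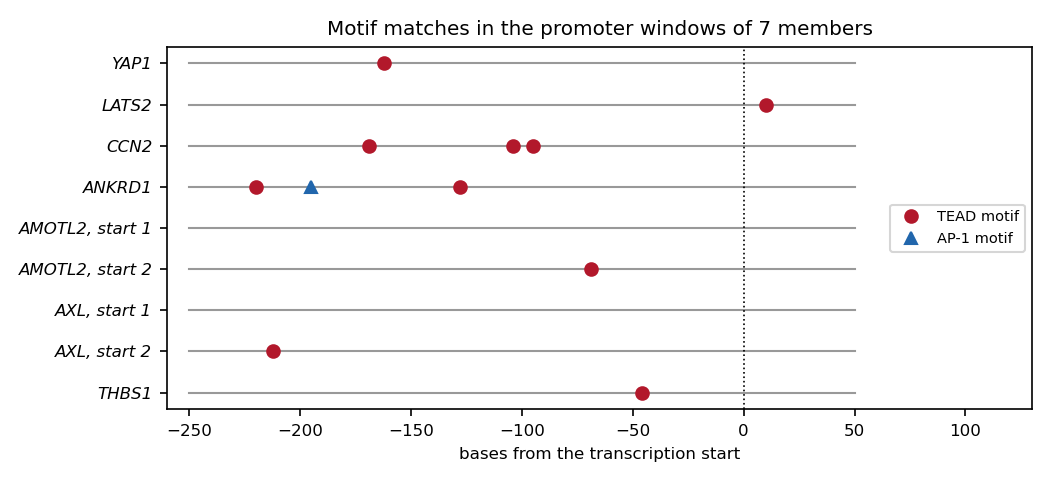
Positions of matches to the TEAD sequence (circles) and to the loose pattern TGANTCA (triangle, labelled AP-1) in 9 promoter windows of 7 genes. The x axis gives bases from the annotated start, and each line is 1 window. CCN2 has 3 TEAD matches and ANKRD1 has 2, and the first start of AMOTL2 and of AXL has none.

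How did the coactivator and its DNA-binding partner stand in the 3 conditions? YAP1 had 194 and 176 CPM in the labelled knockout with EPZ-6438, 208 and 199 CPM in the labelled knockout with DMSO, and 178 and 178 CPM in Cal27 with DMSO. The libraries of the labelled knockout with DMSO lay above the other 4, by little, and the EPZ-6438 libraries spanned the Cal27 level. YAP1 was 1.14-fold higher in the labelled knockout than in Cal27 (log2 0.19 ± 0.04, SE) and 1.1-fold lower with EPZ-6438 than with DMSO (log2 -0.14 ± 0.04). Leaving out 1 library at a time gave log2 0.15 to 0.22 for the first and -0.21 to -0.07 for the second, where the smallest change, -0.07, was the value without the second EPZ-6438 library.

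TEAD1 (chr11:12674421-12944737, GRCh38) had 127 and 113 CPM with EPZ-6438, 133 and 132 CPM in the labelled knockout with DMSO, and 102 and 105 CPM in Cal27 with DMSO. All 4 libraries of the labelled knockout lay above both Cal27 libraries. TEAD1 was 1.27-fold higher in the labelled knockout (log2 0.35 ± 0.05) and 1.11-fold lower with EPZ-6438 than with DMSO (log2 -0.15 ± 0.05). The EPZ-6438 difference was log2 -0.23 without the first EPZ-6438 library and -0.06 without the second.

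The restraining genes differed from each other. AMOTL2, an angiomotin relative that binds YAP1 and holds it at junctions, had 183 and 181 CPM with EPZ-6438, 189 and 185 CPM in the labelled knockout with DMSO, and 130.3 and 134 CPM in Cal27 with DMSO. Its libraries fell into a high and a low set that followed the line and not the treatment: it was 1.41-fold higher in the labelled knockout (log2 0.49 ± 0.04) and differed little between EPZ-6438 and DMSO (log2 -0.04 ± 0.04). LATS2 had 26.1 and 26.7 CPM with EPZ-6438, 28.6 and 25 CPM in the labelled knockout with DMSO, and 22.5 and 23.1 CPM in Cal27 with DMSO. All 4 libraries of the labelled knockout lay above both of Cal27, with a difference of log2 0.22 ± 0.09 in the knockout contrast and of -0.02 ± 0.09 in the inhibitor contrast. The first of these was log2 0.12 without the first library of the labelled knockout with DMSO.

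THBS1, which encodes the secreted matrix protein thrombospondin 1, moved most with the inhibitor. It had 343 and 343 CPM with EPZ-6438, 2216 and 2218 CPM in the labelled knockout with DMSO, and 1167 and 1161 CPM in Cal27 with DMSO. The 3 groups did not overlap, and the EPZ-6438 libraries lay far below both others. THBS1 was 1.89-fold higher in the labelled knockout (log2 0.92 ± 0.02), 6.45-fold lower with EPZ-6438 than with DMSO (log2 -2.69 ± 0.02), and with EPZ-6438 3.41-fold lower than in Cal27 with DMSO (log2 -1.77 ± 0.02). It took 0.0342% and 0.0344% of all counts with EPZ-6438, 0.222% and 0.221% in the labelled knockout with DMSO, and 0.113% and 0.112% in Cal27 with DMSO.

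CCN1 and AXL were, like THBS1, highest in the labelled knockout with DMSO, but with EPZ-6438 they did not lie below Cal27 as THBS1 did. CCN1 (chr1:85580761-85583950), a secreted integrin-binding matrix protein, had 209.8 and 208 CPM with EPZ-6438, 348 and 346 CPM in the labelled knockout with DMSO, and 164 and 162 CPM in Cal27 with DMSO. It was 2.11-fold higher in the labelled knockout (log2 1.08 ± 0.03) and 1.66-fold lower with EPZ-6438 than with DMSO (log2 -0.73 ± 0.03). With EPZ-6438 it stayed above Cal27 with DMSO by log2 0.35 ± 0.03, and no library of 1 group reached another group.

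AXL, a receptor tyrosine kinase, had 88.7 and 93 CPM with EPZ-6438, 179 and 174 CPM in the labelled knockout with DMSO, and 89.1 and 87.9 CPM in Cal27 with DMSO. The EPZ-6438 and Cal27 libraries overlapped, and the labelled knockout with DMSO stood apart from both. AXL was 1.98-fold higher in the labelled knockout (log2 0.99 ± 0.04) and 1.94-fold lower with EPZ-6438 than with DMSO (log2 -0.96 ± 0.04). Against Cal27 with DMSO, the treated labelled knockout differed by log2 0.03 ± 0.05.

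ANKRD1 and CCN2 were low and behaved differently. ANKRD1, an ankyrin-repeat protein known as a transcriptional cofactor in heart muscle, had 48 and 50 counts (4.1 and 3.22 CPM) with EPZ-6438, 74 and 70 counts (5.76 and 5.11 CPM) in the labelled knockout with DMSO, and 3 and 10 counts (0.22 and 0.746 CPM) in Cal27 with DMSO. All 4 libraries of the labelled knockout lay above both of Cal27. It was 11-fold higher in the labelled knockout (log2 3.46 ± 0.38), a value that ran to log2 2.84 without the first Cal27 DMSO library and to 4.56 without the second. With EPZ-6438 it differed from DMSO by log2 -0.58 ± 0.27, and by -0.75 to -0.41 when 1 library at a time was left out.

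CCN2, a matrix protein related to CCN1, had 13.9 and 11.9 CPM with EPZ-6438, 11.2 and 12.2 CPM in the labelled knockout with DMSO, and 10.6 and 8.87 CPM in Cal27 with DMSO. The first 2 groups overlapped, and the Cal27 libraries lay just below them. It differed by log2 0.26 ± 0.14 in the knockout contrast and by 0.13 ± 0.13 in the inhibitor contrast.

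**Figure D2:**
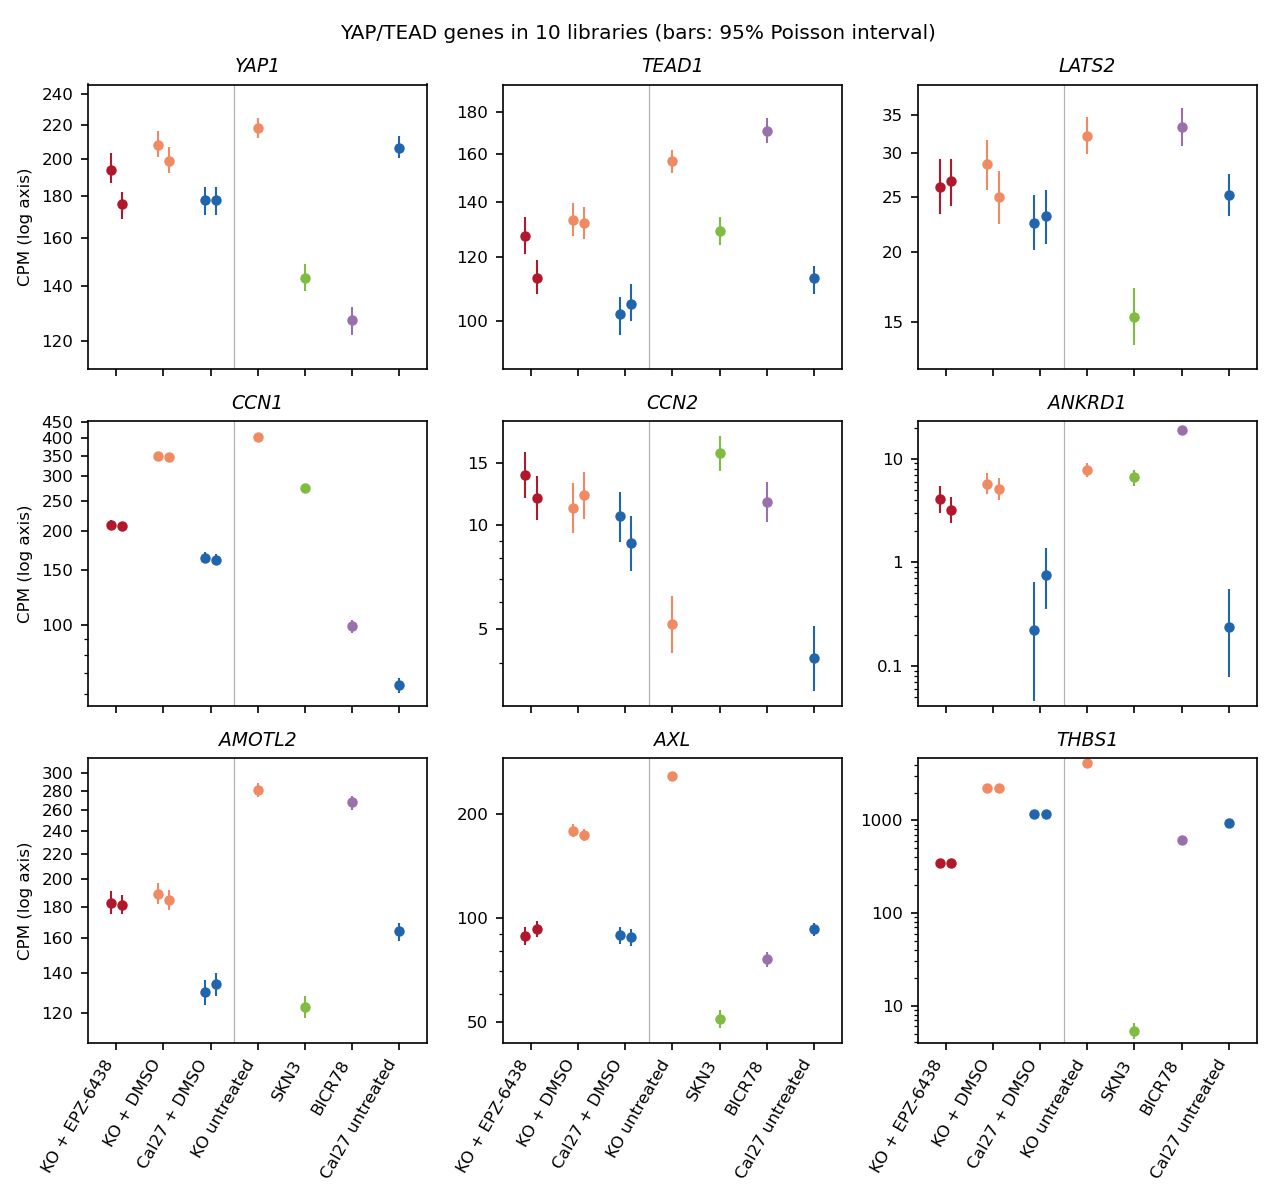
CPM on a log axis for the 9 genes, 1 panel each, in all 10 libraries. Bars are exact 95% Poisson intervals of each library's count, and the vertical line parts the EPZ-6438 and DMSO libraries from the untreated ones. THBS1 spans from 5.38 CPM in SKN3 to 4218 CPM in the untreated labelled knockout, and YAP1 stays between 127 and 218 CPM.

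The labelled knockout with EPZ-6438 was also set against Cal27 with DMSO. ANKRD1 was 7.37-fold higher in the treated labelled knockout (log2 2.88 ± 0.40), AMOTL2 1.37-fold (log2 0.46 ± 0.04), CCN2 1.31-fold (log2 0.39 ± 0.14) and TEAD1 1.15-fold (log2 0.20 ± 0.05). YAP1 differed by log2 0.04 ± 0.04 and LATS2 by 0.20 ± 0.09. Leaving out 1 library at a time gave log2 0.27 to 0.52 for CCN2 and 0.13 to 0.29 for TEAD1, where 0.13 was the value without the first EPZ-6438 library.

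Counted together, 7 of the 9 genes were called higher in the labelled knockout with DMSO than in Cal27 with DMSO, and none lower. Over all 13241 tested genes, 16.4% were called higher and 19.5% lower. With EPZ-6438, 5 of the 9 were called lower than with DMSO and none higher, where 23.9% of all genes were called lower and 25.6% higher. In the labelled knockout with EPZ-6438 against Cal27 with DMSO, 5 were called higher (TEAD1, CCN1, CCN2, ANKRD1 and AMOTL2) and THBS1 was called lower, where the shares over all genes were 26.1% and 25.9%. Because the genes were chosen on these contrasts, the counts describe the choice and nothing is read from them. Leaving out 1 library, or another processing setting, changed in at least 1 contrast whether YAP1, TEAD1, LATS2, CCN2 and ANKRD1 were counted. The first 2 contrasts share the libraries of the labelled knockout with DMSO, so a high value there raises one and lowers the other.

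With library size alone in place of TMM scaling, the split over all genes moved to 2978 higher and 2088 lower in the knockout contrast, against 2169 and 2580 with TMM. For the treated labelled knockout against Cal27 it moved to 4016 and 2815, against 3456 and 3428. Neither change of scaling turned the direction of a gene counted above. Cell markers moved with these groups too. The 9 squamous markers summed to 2649.5 and 2643 CPM with EPZ-6438, 3929 and 4056 CPM in the labelled knockout with DMSO, and 8319 and 8248 CPM in Cal27 with DMSO. KRT5 alone gave 872 and 887, 1903 and 1984, and 4055 and 3984 CPM of these sums in that order. In the knockout contrast 7 of the 9 were called lower, while CDH1 was not called (log2 0.01 ± 0.03) and EPCAM was called higher (log2 0.11 ± 0.04). The 8 fibroblast markers, a cell type rich in CCN1, CCN2, THBS1 and AXL, summed to 21.4 and 25.3 CPM with EPZ-6438, 9.96 and 7.52 CPM in the labelled knockout with DMSO, and 20.7 and 19.1 CPM in Cal27 with DMSO. Among these groups the fibroblast sum was lowest in the labelled knockout with DMSO, where COL1A1 alone gave 6.93 and 4.31 CPM of it. In bulk RNA a smaller number of cells with a transcript and less of it per cell cannot be told apart, and the part of marker changes in these results was not tested.

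**Figure D3:**
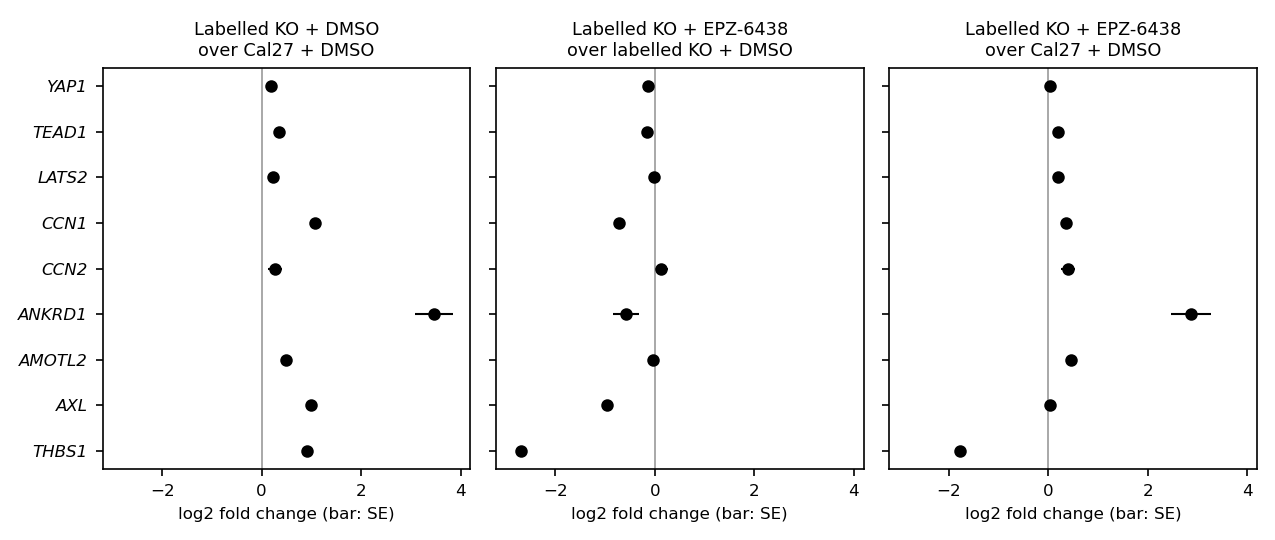
Log2 fold changes with SE for the 9 genes in the 3 contrasts of the 2-library groups, from 1 edgeR fit. THBS1 has the largest change of the 9 with EPZ-6438 against DMSO (-2.69) and ANKRD1 the largest in the knockout contrast (3.46, with the widest bar among them).

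In untreated cells, where each line was sequenced once, the labelled knockout had more CCN1, THBS1, AXL and ANKRD1 than Cal27. These are ratios of 1 library to 1 library with an interval for counting error only, so they have no replicate check. CCN1 had 401 CPM in the labelled knockout, against 64 CPM in Cal27, a ratio of 6.27 (95% interval 5.92 to 6.65). The ratio in the DMSO libraries was 2.11, and Cal27 itself differed between the sets, with 64 CPM untreated and 164 and 162 CPM with DMSO. The difference between the 2 sets was not tested.

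THBS1 had 4218 CPM in the untreated labelled knockout, or 0.438% of all its counts, against 933 CPM in Cal27, a ratio of 4.52 (4.45 to 4.59). AXL had 258 CPM against 92.8 CPM, a ratio of 2.78 (2.64 to 2.93). ANKRD1 had 172 counts against 5, a ratio of 32.8 with a wide interval (13.8 to 102). These 3 genes had the same direction as in the DMSO libraries. The ratio was 1.72 for AMOTL2, 1.39 for TEAD1, 1.28 for LATS2 and 1.06 for YAP1. CCN2 had 5.17 CPM against 4.14 CPM, and its interval took in 1 (0.937 to 1.67).

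SKN3 set the members apart. THBS1 had 102 counts there (5.38 CPM), against 19616 counts in untreated Cal27, so it was 174-fold lower in SKN3 (95% interval 143 to 213). The CCN1, CCN2 and ANKRD1 readouts went the other way: CCN1 had 276 CPM in SKN3, against 64 CPM in Cal27, CCN2 had 16.1 CPM, against 4.14 CPM, and ANKRD1 had 6.59 CPM, against 0.238 CPM. Their ratios were 4.32 (4.06 to 4.59), 3.88 (3.05 to 4.99) and 27.7 (11.6 to 86.8) in that order. AXL was lower in SKN3 at a ratio of 0.549, YAP1 at 0.694, LATS2 at 0.606 and AMOTL2 at 0.749, while TEAD1 stood at 1.14. Over the 10 libraries, CCN2 was highest in SKN3, with an interval that overlapped that of the first EPZ-6438 library, and THBS1 was lowest there.

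BICR78 had the highest ANKRD1 of all libraries, at 18.8 CPM (361 counts), against 0.238 CPM (5 counts) in untreated Cal27, a ratio of 78.9 (33.5 to 244). CCN2 had 11.6 CPM in BICR78, against 4.14 CPM in Cal27, a ratio of 2.81 (2.19 to 3.65). TEAD1 was also highest here, at 171 CPM, while YAP1 was lowest, at 127 CPM. The ratio was 1.64 for AMOTL2, 1.55 for CCN1, 1.33 for LATS2, 0.817 for AXL and 0.655 for THBS1. Like SKN3 and unlike the labelled knockout, BICR78 paired a high ANKRD1 with an AXL and a THBS1 below those of Cal27.

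At 2-fold or more, 4 of the 9 genes were higher and none lower in the untreated labelled knockout than in Cal27, where 6.68% of 14062 genes were higher and 10.4% lower. In SKN3, 3 were higher and 1 lower, where 22.8% of 14990 genes were higher and 19.8% lower. In BICR78, 2 were higher and none lower, where 19.5% of 14909 genes were higher and 10.6% lower. The 9 genes were chosen with these libraries known, so the counts describe the choice and nothing is read from them. Squamous markers summed to 4446 CPM in the untreated labelled knockout, 5199 CPM in SKN3, 12572 CPM in BICR78 and 23672 CPM in Cal27. KRT5 alone gave 2658, 971, 6680 and 11306 CPM in that order. Not all markers followed the sum. CDH1 (2.11-fold) and EPCAM (1.39-fold) were higher in the labelled knockout than in Cal27, and the others lower. In SKN3, DSG3 (4.21-fold), EPCAM (2.36-fold) and CDH1 (1.88-fold) were higher, and the others lower. Fibroblast markers summed to 27 CPM in the untreated labelled knockout, 46.5 CPM in SKN3, 55.6 CPM in BICR78 and 26.6 CPM in Cal27. The endothelial marker CDH5 reached 86.1 CPM in the untreated labelled knockout, while KDR was at 0 there. The part of these differences between libraries in the ratios was not tested.

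**Figure D4:**
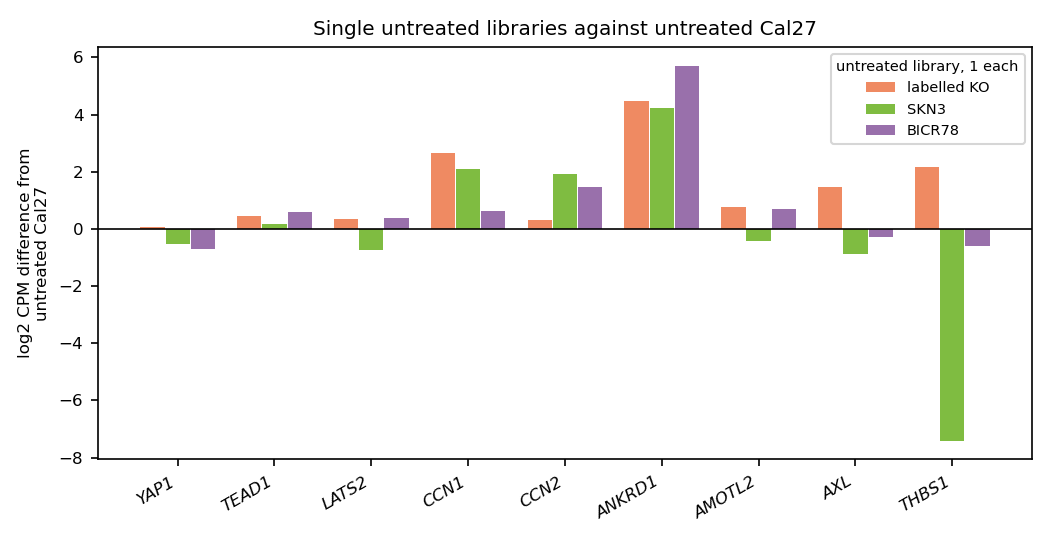
Differences in log2 CPM from untreated Cal27 (prior count of 2) for the 9 genes in the untreated labelled knockout, SKN3 and BICR78, 1 library each and so without error bars. The bar of THBS1 in SKN3 lies far below 0, and those of ANKRD1 lie far above 0 in all 3 lines.

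Ordered by level over the 7 kinds of library, the genes differed in how many pairs of neighbours in that order overlapped. For CCN1 and THBS1 none of the 6 pairs of neighbours overlapped in range or counting interval. For THBS1 the order, low to high, was SKN3, the labelled knockout with EPZ-6438, BICR78, untreated Cal27, Cal27 in DMSO, the labelled knockout in DMSO, and that line untreated. For CCN1 it was untreated Cal27, BICR78, Cal27 in DMSO, the EPZ-6438-treated knockout line, SKN3, the labelled knockout in DMSO, and that line untreated. For AXL, 2 of 6 neighbouring pairs overlapped, both among the labelled knockout with EPZ-6438 and the untreated and DMSO groups of Cal27. LATS2 and CCN2 had the most overlapping pairs, 5 of 6. YAP1, TEAD1 and ANKRD1 had 4 and AMOTL2 had 3. The untreated kinds were single libraries with intervals for counting error only, while replicates differed by more than that (chi-square per degree of freedom 1.77 to 2.20). Counting intervals also widen at low counts, so these numbers are not compared between genes of different counts. The share over all genes was not computed, so they are a description.

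The range over the 10 libraries, on the log2 CPM scale, was 9.58 for THBS1, 5.78 for ANKRD1, 2.65 for CCN1, 2.34 for AXL and 1.93 for CCN2. It was 1.20 for AMOTL2, 1.12 for LATS2, 0.77 for YAP1 and 0.75 for TEAD1. Over these 10 libraries each target thus had a wider range than the coactivator and its partner. For LATS2 this rested on SKN3, at a log2 CPM of 3.95, where its other libraries lay between 4.50 and 5.07. The lowest ANKRD1 library had 3 counts. Of the 9, LATS2 and AMOTL2 were most alike in pattern, with a root mean square difference of 0.19 in centred log2 CPM over the 10 libraries, and ANKRD1 and THBS1 least, at 3.38.

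Among 10960 other genes of at least 5 CPM on average, the nearest pattern to THBS1 was that of the cadherin CDH2, with a root mean square difference of 0.63, and next that of SORBS2, at 0.75. CDH2 rose in the labelled knockout with DMSO (log2 0.67 ± 0.10) and fell with EPZ-6438 (log2 -1.38 ± 0.11). Since CDH2 was picked by its nearness to THBS1 in the same libraries, these directions are no separate observation. CHRNB1, a muscle acetylcholine receptor subunit, was nearest to CCN1 (0.35), followed by ANXA3 (0.37). PLK3 was nearest to AXL (0.24), followed by B3GALNT1 (0.29). For ANKRD1 the nearest, SEMA3B, was 0.98 away and ANXA9 1.01, so no gene followed it closely. The genes nearest to YAP1 (MAN2B1 and GUCD1, 0.05 and 0.06), TEAD1 (SLX4 and POLL, 0.10 and 0.11), LATS2 (DGLUCY and DCAF12, 0.09 and 0.10), AMOTL2 (HUWE1 and HSD3B7, 0.15 and 0.16) and CCN2 (TMEM242 and DDHD2, 0.23 and 0.26) were closer than that, and these 5 members also varied least. The distances are not scaled to how much a member varies and widen at low counts such as those of ANKRD1 in Cal27. They therefore do not show how closely 1 member was followed beside another. Members were not compared with each other in this search.

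The remaining genes of the pathway were described by lists that were also chosen with earlier results of these data known. Up to 3 genes per list and contrast were named for the lowest adjusted p, so these p-values describe selected genes. Of 24 tested Hippo kinases, scaffolds and upstream regulators, 13 rose and 2 fell in the labelled knockout with DMSO (median log2 0.21). Over all 13241 genes 16.4% were called higher and 19.5% lower, with a median of -0.01. MAP4K4, a kinase that acts on LATS, rose by log2 0.55 ± 0.03 (adjusted p = 1e-09) and SAV1 by 0.50 ± 0.05 (adjusted p = 8.4e-07; edgeR). The 2 that fell, named after their values were seen, were RASSF5 (log2 -0.47 ± 0.13) and AMOT, the founding angiomotin. AMOT had 0 counts in both libraries of the labelled knockout with DMSO, against 16 and 27 counts in Cal27 with DMSO, and so was at least 14.1-fold lower on a floor of 3 counts over the group. LATS1 was not called (log2 0.08 ± 0.06, adjusted p = 0.34).

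With EPZ-6438, 2 of the same 24 rose and 11 fell (median log2 -0.18). Over all genes 25.6% were called higher and 23.9% lower, with a median of 0.00. The LIM protein AJUBA, which binds LATS kinases, had 132 and 131 CPM with EPZ-6438, against 218 and 228 CPM with DMSO (log2 -0.76 ± 0.04, adjusted p = 2.4e-11; edgeR). NF2, which encodes merlin, fell by 0.44 on the log2 scale (SE 0.07, adjusted p = 3.1e-05), and the phosphatase PTPN14, which binds YAP1, by 0.24 (SE 0.04, adjusted p = 0.00015). The 2 that rose were SAV1 (log2 0.23 ± 0.05) and AMOT, which had 5 and 13 counts, against 0 and 0 with DMSO. LATS1 was again not called (log2 -0.05 ± 0.06, adjusted p = 0.51).

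Among TAZ, the other TEADs and TEAD cofactors, 2 of 7 tested genes rose and none fell in the labelled knockout with DMSO (median log2 0.17), beside 16.4% and 19.5% of all genes. WWTR1, which encodes TAZ, had 128 and 123 CPM there, against 88 and 93.6 CPM in Cal27 with DMSO (log2 0.46 ± 0.05, adjusted p = 1.2e-06; edgeR). VGLL2, a vestigial-like cofactor that competes for TEADs, had 31.1 and 31.7 CPM, against 7.93 and 7.53 CPM (log2 2.01 ± 0.10, adjusted p = 1.1e-10). VGLL2 had 0 counts in SKN3 and in BICR78. With EPZ-6438, 1 rose and 4 fell (median log2 -0.21), beside 25.6% and 23.9% of all genes. WWTR1 fell to 98.8 and 93.2 CPM (log2 -0.39 ± 0.05, adjusted p = 4.2e-06) and VGLL2 to 17.7 and 18.7 CPM (log2 -0.78 ± 0.09, adjusted p = 1.8e-06). VGLL3 (log2 -0.35 ± 0.13) and TEAD4 (log2 -0.21 ± 0.08, adjusted p = 0.031) made up the 4, and TEAD3 rose (log2 0.40 ± 0.07, adjusted p = 0.00018). TEAD2 was not called in either contrast (adjusted p = 0.56 and 0.77). The calls with EPZ-6438 came to 3 in place of 5 with DESeq2, with a filter of 5 CPM, and without either DMSO library of the labelled knockout or the second EPZ-6438 library, and those of the knockout contrast to 4 in place of 2 with library size alone.

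Of 16 published YAP/TAZ targets outside the 9, 8 rose and 3 fell in the labelled knockout with DMSO (median log2 0.16), beside 16.4% and 19.5% of all genes. PTPN14 is on this list and on that of the Hippo regulators, and is counted in both. NT5E, the surface nucleotidase CD73, had 164 and 158 CPM, against 54.3 and 52.9 CPM in Cal27 with DMSO (log2 1.58 ± 0.05, adjusted p = 6.2e-14; edgeR). F3, tissue factor, rose by log2 0.34 ± 0.03 and CRIM1 by 0.41 ± 0.04. The 3 that fell were MYOF (log2 -0.14 ± 0.03), IGFBP3 (log2 -0.16 ± 0.02) and FOXF2, which had 0 counts in both libraries, against 27 and 27, and so was at least 17.7-fold lower. With EPZ-6438, 3 rose and 8 fell (median log2 -0.21), beside 25.6% and 23.9% of all genes. F3 had 630.4 and 613 CPM with EPZ-6438, against 1226 and 1239.8 CPM with DMSO (log2 -0.99 ± 0.03, adjusted p = 4.8e-15). MYOF fell too (log2 -0.52 ± 0.03), and IGFBP3, CCDC80 and FOXF2 rose, IGFBP3 by log2 0.38 ± 0.02. FOXF2 rested on 9 counts in 1 of the EPZ-6438 libraries. The medians of these lists were the same with AMOT and FOXF2 set at their bounds.

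**Figure D5:**
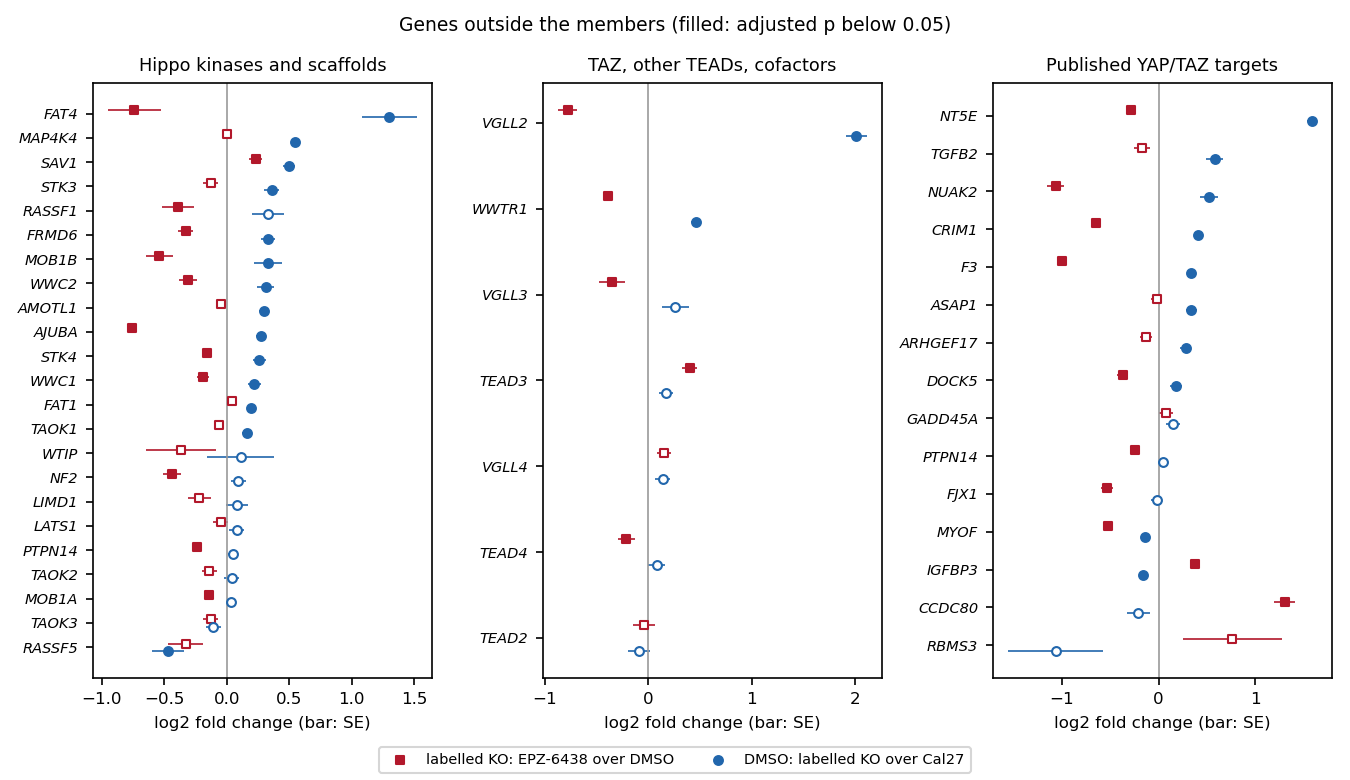
Log2 fold changes with SE of genes outside the 9 in the inhibitor contrast (squares) and the knockout contrast (circles), in 3 lists; filled marks have an adjusted p below 0.05. AMOT and FOXF2, whose libraries of the labelled knockout with DMSO had 0 counts, are left out of the panels. NT5E and VGLL2 have the largest increases in the knockout contrast.

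Genes of the actin-linked SRF and MRTF factors, which share some targets with YAP, were set beside these. In the labelled knockout with DMSO, 2 of 16 rose and 2 fell (median log2 0.03), beside 16.4% and 19.5% of all genes. The myosin MYH9 (log2 0.15 ± 0.02) and vinculin, VCL (log2 0.16 ± 0.03), rose. Filamin, FLNA (log2 -0.13 ± 0.03), and the smooth muscle actin ACTA2 (log2 -1.06 ± 0.35, adjusted p = 0.025; edgeR) fell. With EPZ-6438, 3 rose and 9 fell (median log2 -0.17), beside 25.6% and 23.9% of all genes. The 3 that rose, named after their values were seen, included the 2 largest changes of the list in either direction, ACTA2 and FHL1. ACTA2 had 66 and 78 counts with EPZ-6438, against 10 and 16 with DMSO (log2 2.43 ± 0.31, adjusted p = 5e-06; edgeR). FHL1, a LIM-domain protein of muscle, had 95 and 99 counts, against 15 and 36 (log2 1.91 ± 0.29, adjusted p = 4e-05), and the tropomyosin TPM1 rose by log2 0.25 ± 0.08 (adjusted p = 0.013). Among those that fell were FLNA by 0.67 (SE 0.03, adjusted p = 1.8e-12), MYH9 by 0.52 (SE 0.02, adjusted p = 9.5e-12) and ACTB by 0.30 (SE 0.02, adjusted p = 1.7e-09; edgeR). ACTB is often used as a loading control, and it had 4091 and 4032 CPM with EPZ-6438, against 5044 and 4978 CPM with DMSO.

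Relatives of the secreted members were also counted. Of 6 tested CCN and thrombospondin relatives and receptors, none rose and 3 fell in the labelled knockout with DMSO (median log2 -1.51), beside 16.4% and 19.5% of all genes. CCN3 had 2.18 and 1.53 CPM, against 10.6 and 10.4 CPM in Cal27 with DMSO (log2 -2.51 ± 0.20, adjusted p = 2.8e-08; edgeR). THBS2 had 1 and 2 counts, against 29 and 34 (adjusted p = 2.2e-05), and CCN5 had 1 and 0 counts, against 13 and 14 (adjusted p = 0.0033). With EPZ-6438, 5 rose and none fell (median log2 1.61), beside 25.6% and 23.9% of all genes. CCN3 had 10.3 and 11.2 CPM with EPZ-6438, against 2.18 and 1.53 CPM with DMSO (log2 2.54 ± 0.20, adjusted p = 1.3e-08), and THBS2 had 12 and 27 counts, against 1 and 2 (adjusted p = 0.00021). CD47, a receptor of thrombospondin 1, rose by log2 0.25 ± 0.03 (adjusted p = 1e-06). CCN1 and THBS1 thus had the opposite signs to CCN3 and THBS2 in both contrasts. Both contrasts share the libraries of the labelled knockout with DMSO, where THBS2 had 1 and 2 counts. CCN6 (log2 0.18 ± 0.14), THBS3 (log2 -0.50 ± 0.20) and CD47 (log2 -0.00 ± 0.03) were not called in the knockout contrast.

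The ligand of AXL had the same signs as AXL. GAS6 had 181 and 179 CPM with EPZ-6438, 259.9 and 252 CPM in the labelled knockout with DMSO, and 177 and 175 CPM in Cal27 with DMSO. It was higher in the labelled knockout by log2 0.53 ± 0.03 (adjusted p = 2.1e-09) and fell by 0.51 with EPZ-6438 (SE 0.03, adjusted p = 1.9e-09; edgeR). MERTK, a related receptor, had 9.9 and 10.2 CPM with EPZ-6438, 3.58 and 3.43 CPM in the labelled knockout with DMSO, and 0.514 and 0.298 CPM in Cal27 with DMSO. It rose in both contrasts, by log2 3.07 ± 0.34 (adjusted p = 1.8e-06) and 1.52 ± 0.20 (adjusted p = 6.5e-06). In the list of 4, TYRO3, MERTK, GAS6 and PROS1, 2 rose and none fell in the knockout contrast (median log2 0.29), and 2 rose and 2 fell with EPZ-6438 (median log2 0.49), beside the shares of all genes given above for each contrast. PROS1, a ligand of the related receptors TYRO3 and MERTK, rose with EPZ-6438 by log2 1.26 ± 0.22 (adjusted p = 0.00012; edgeR). TYRO3 fell (log2 -0.28 ± 0.09).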

How the data were processed

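The 10 RNA libraries were grouped by their titles, and the 7 CUT&Tag samples were not analysed here. The deposited values are raw counts per gene, taken as they stand. Per the submitters' processing notes, the reference was hg38, with HISAT2 2.1.0, featureCounts 1.6.1, Picard 2.23.1 and CASAVA 1.7 listed as tools. Their roles, the annotation and the strand setting were not given in the sources used, so reads of overlapping or antisense genes cannot be told apart. Per the labels' protocols, ribosomal RNA was removed before library preparation, so intronic reads can be counted where the annotation includes them.

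A single edgeR 4.0.16 model (R 4.3.3) took the 6 EPZ-6438 and DMSO libraries and all genes that passed its default low-count filter (13241, among them all 9 members). Scaling was by TMM and the test was the quasi-likelihood F test. The threshold for a call was a Benjamini-Hochberg adjusted p of 0.05 over all tested genes. The fit had 3 residual degrees of freedom and a common biological coefficient of variation of 2.6%. No label says whether replicates were separate cultures, so the p-values reflect no more than the spread between samples, which may be technical. Replicates differed by more than counting noise (chi-square per degree of freedom 1.77 to 2.20). CPM used TMM scaling over the 10 libraries. Single libraries were compared as ratios with exact 95% intervals for counting error only, over genes with at least 10 counts in either library and, for the 2-fold counts, a prior count of 2. Transcript lengths were not used here, so levels of different genes were not compared.

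The members and lists were chosen with earlier results of these data known. The rule for named genes took the 9 members, NSD1, EZH2, WWTR1, TEAD2, TEAD3, TEAD4 and LATS1; up to 3 called genes per list and contrast with the lowest adjusted p; the 2 genes nearest in pattern to each member; and the highest marker of each cell type. Other genes are named where they complete a count of 5 or fewer or a list of 4, and squamous markers where they did not follow their sum. Promoter sequences came from RefSeq (GRCh38.p14), which held windows for 7 of the 9 members. Alternatives were DESeq2 1.42.0, scaling by library size alone or by DESeq2-type size factors, no or stricter low-count filters, a replicate block, fits of 2 groups, a robust spread estimate and leaving out each library. The test was checked on simulated counts.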

Additional observations from a re-analysis of the deposited data

How the results depend on the processing

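The number of all genes called stayed within 1.5 times the value reported under all 15 alternatives in the 3 contrasts. Leaving out 1 library at a time gave 3463 to 4768 calls between the DMSO groups, 5344 to 6524 for the inhibitor and 5830 to 6808 for the treated labelled knockout against Cal27. Of the list counts, TAZ, the other TEADs and cofactors had 4 calls in the knockout contrast with library size alone (2 as reported), and the SRF and MRTF list had 7 (4 as reported). In the inhibitor contrast the TAZ and TEAD list had 3 calls (5 as reported) with DESeq2 and with a filter of 5 CPM, and 3 to 5 when 1 library was left out, with 3 without either DMSO library of the labelled knockout or without the second EPZ-6438 library. The other list counts stayed within 1.5 times. Same-numbered replicates did not deviate together (correlations 0.01, -0.05 and 0.00 over 13241 genes), so the numbers are not taken as pairs. With the number as a replicate block there were 4512, 6370 and 6718 calls in the same order, and no member changed its call. No called member changed sign. In the treated labelled knockout against Cal27 YAP1 was called without the second EPZ-6438 library (log2 0.12) and LATS2 with library size alone (log2 0.25), and ANKRD1 ran from log2 2.26 to 3.97, the last without the second Cal27 DMSO library. Low counts of ANKRD1 in Cal27 limit its fold changes.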
